A study of Macaca mulatta with 10 samples.

Results

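Ligands and receptors of the tumour necrosis factor (TNF) superfamily were followed in rhesus macaque liver after brain death. Probe sets of the array belonged here when the platform annotation gave them exactly 1 gene symbol and that symbol was TNF, TNFSF10, TNFSF13B, TNFSF15, TNFRSF1A, TNFRSF1B, TNFRSF12A, TNFRSF21, FAS or CD40. Of these 10 genes 9 were found, with 20 of the 52865 probe sets on the array, and TNFRSF1A was not analysed here. Of the 20 probe sets, 15 from 8 genes were bright enough to be tested, which meant a signal above the median of its array on at least 5 of the 10 arrays. The other 5 were the sole probe set of TNF and one or more probe sets of TNFSF10, FAS and CD40. Probe sets of the same gene are numbered below in falling order of their mean log2 signal, so that TNFRSF1B (1) is the brightest of TNFRSF1B.

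The brain-dead group held 5 animals, 2 females and 3 males, in whom a catheter balloon was inflated in the extradural space until brain death. Their blood pressure was then kept up with lactated Ringer's solution and, later, vasopressin and/or dopamine, and the liver was taken after 6 h per the sample labels or 5 h per the design text. The control group held 5 living donors, 3 females and 2 males, that were anaesthetised and ventilated for 1 h before the liver was taken. Brain-dead animals were 7 to 18 years old, with 1 age not given, and control animals 4 to 20 years. Brain death, drugs and the time under ventilation therefore cannot be told apart. Whole liver tissue was used, flushed with preservation solution in both groups, with 1 array per animal and no sorting of cells.

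Ligands of the TNF superfamily are trimers, made as membrane proteins and often released by proteases, that cluster receptors on the target cell. Death receptors such as FAS, TNFRSF1A and TNFRSF21 carry a death domain in their cytoplasmic part and can start caspase activation, whereas TNFRSF1B, TNFRSF12A and CD40 lack it and signal through TRAF adaptors to NF-kB. In liver, TNF is made largely by macrophages and FAS is found on hepatocytes, where the same receptors can feed survival signals or cell death.

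Both animals numbered 1 stood apart from the rest on the second principal component of all tested probe sets, with scores of 72.1 for the brain-dead animal and 69.6 for the control animal against 26.5 or less for the others. The array medians ran from 175 to 227, and precision is limited by having 10 arrays. Of the hepatocyte markers measured, SERPINA1, APOA1, APOB and FGB all lay above the filter, and their summed signal was 301012 to 366112 in brain-dead livers and 329613 to 427727 in control livers. None passed on its brightest probe set (limma, Benjamini-Hochberg, 0 of 4), while another probe set of SERPINA1 rose by 1.17 (adjusted p = 0.0464, lost in 15 of 23 alternatives). The brightest SERPINA1 probe set was at -0.16 and the remaining ones at -1.14, -0.09, -0.82 and -1.15, none past the threshold. In such bulk tissue, fewer cells of a type and less RNA per cell cannot be told apart.

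Of the 15 probe sets tested, 2 rose in brain-dead livers, TNFSF15 and TNFRSF1B (2), and 1 fell, TNFSF10 (2), while 12 did not pass in limma (Benjamini-Hochberg adjusted p under 0.05). The background over all 26653 probe sets tested was 6.1% past the same threshold, 2.72% higher and 3.39% lower in brain-dead livers. The signals of the groups did not overlap for 2 of the 15, the same TNFSF15 and TNFRSF1B (2), against 6.93% of all probe sets (3.33% higher and 3.6% lower in brain-dead livers). The median log2 change was 0.46 over the 15 probe sets and -0.0027 over all tested, with 10 of the 15 above 0. Among the 15 the count past the threshold stayed between 2 and 4 when any array was left out. It was 3 without both animals numbered 1, these being TNFSF15, TNFRSF1B (2) and FAS (2), all higher. Over the whole array, 1627 probe sets passed, and that number was lower by more than 1.5 times without control animals 1, 2 or 3 (856, 660 and 735) and without brain-dead animals 3, 4 or 5 (892, 849 and 680).

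**Figure D1:**
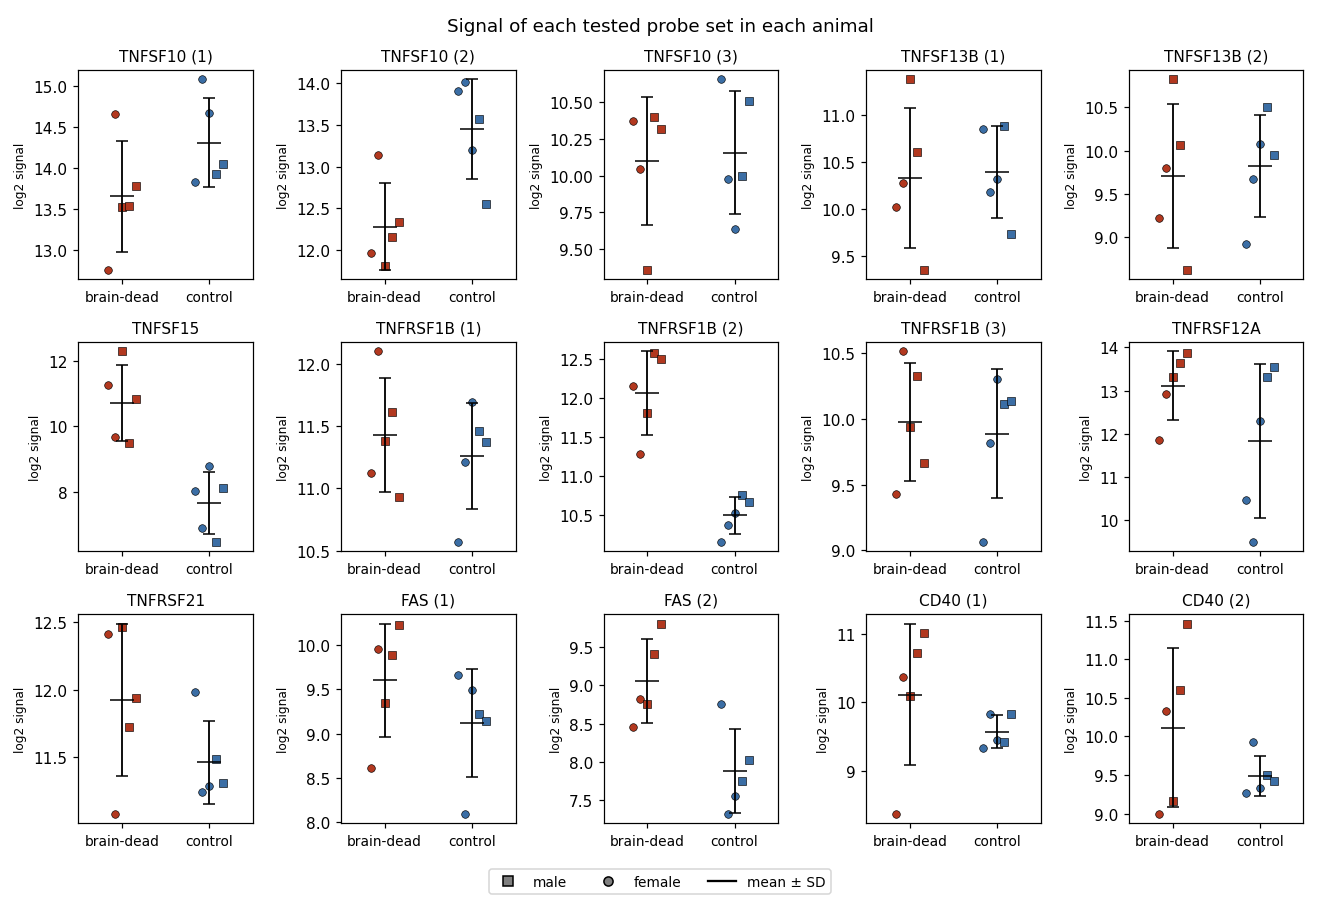
Log2 signal of the 15 tested probe sets, 1 point per animal, with brain-dead animals on the left and control animals on the right of each panel; squares are males, circles females, and bars give the mean ± SD (n = 5 each). The groups are apart for TNFSF15 and TNFRSF1B (2) and overlap in the other 13 panels, and the vertical scale differs between panels.

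TNFSF15 (also called TL1A), a ligand of the death receptor TNFRSF25 that costimulates T cells, had the largest change of the 15. Its signal was 2480, 815, 5053, 726 and 1838 in brain-dead animals 1 to 5, against 260, 118, 443, 87.9 and 276 in control animals 1 to 5. The lowest brain-dead animal thus lay above the highest control animal, while animals within each group differed 6.96-fold (brain-dead) and 5.04-fold (control) between highest and lowest. TNFSF15 rose 8.38-fold, a log2 change of 3.07 ± 0.55 (SE, n = 5 per group; in limma, Benjamini-Hochberg adjusted p = 0.00885), with a 95% interval of 1.89 to 4.24. All 5 brain-dead arrays but only 3 of the 5 control arrays had TNFSF15 above the array median, so the size of the change is uncertain, and with a pseudocount of 64 it was 2.69 on the log2 scale. TNFSF15 was higher in both sexes without overlap, at 726 to 5053 in brain-dead males against 87.9 and 276 in control males, and at 815 and 2480 in brain-dead females against 118 to 443 in control females. With so few animals per sex, 16% of all probe sets in males and 15.4% in females were higher in brain-dead animals without overlap, and 15.6% in males and 16.1% in females were lower. Its partner TNFRSF25, a receptor with a death domain, averaged 189 in brain-dead and 243 in control livers, and its log2 change of -0.84 ± 0.57 (SE) was not past the threshold in limma (Benjamini-Hochberg adjusted p = 0.396). TNFRSF25 lay below the array median in brain-dead animals 1, 4 and 5, at 66.1, 174 and 35.1 against medians of 215, 175 and 178. The size of its change is therefore uncertain too.

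TNFSF10 (TRAIL) is the ligand of the death receptors TNFRSF10A and TNFRSF10B, and its probe sets gave different answers. TNFSF10 (2) had signals of 3994, 9003, 3596, 4567 and 5161 in brain-dead animals 1 to 5, against 15382, 16612, 9425, 12219 and 5983 in control animals 1 to 5. All brain-dead animals other than animal 2 lay below every control animal, and animal 2 lay below all control animals except animal 5. TNFSF10 (2) fell by 1.17 ± 0.32 on the log2 scale, to 0.444 of the control level (SE, n = 5 per group; in limma, Benjamini-Hochberg adjusted p = 0.0459).

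That call depended on single animals and settings. It ended without brain-dead animals 1, 3, 4 or 5 (limma, Benjamini-Hochberg adjusted p = 0.0828, 0.100, 0.0943 and 0.0923) and without control animals 1, 2, 3 or 4 (0.0991, 0.116, 0.0760 and 0.0627), in each case with the change between -1.23 and -1.03. With sex in the model TNFSF10 (2) changed by -1.06 (limma, Benjamini-Hochberg adjusted p = 0.0555), and over all its alternatives the adjusted p ranged from 0.0207 to 0.154. Within each sex the brain-dead animals lay below the control animals, at 3596 to 5161 against 5983 and 12219 in males and at 3994 and 9003 against 9425 to 16612 in females. Taking each sex alone, 15.6% of all probe sets in males and 16.1% in females were lower without overlap.

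The brightest probe set, TNFSF10 (1), averaged 14147 ± 7078 in brain-dead and 21603 ± 8667 in control livers (SD, n = 5 each). Its change of -0.66, which was -0.43 without brain-dead animal 1, had a 95% interval of -1.38 to 0.07 and did not pass in limma (Benjamini-Hochberg adjusted p = 0.256). TNFSF10 (3) averaged 1132 ± 289 in brain-dead and 1178 ± 340 in control livers, with a change of -0.06 and an interval of -0.63 to 0.51. In TNFSF10 (1) and (2), brain-dead animal 2 was the highest of its group and control animal 2 the highest of the controls, which was not so in TNFSF10 (3). TNFSF10 (4) lay below every array median, with a mean of 66.9 in brain-dead and 106 in control livers, and was not tested. The receptor TNFRSF10B had a log2 change of 0.36 ± 0.22, which was not past the threshold in limma (Benjamini-Hochberg adjusted p = 0.338). Both probe sets of TNFRSF10A had changes above 0. The brighter was at 1.76 ± 0.51 without passing (limma, Benjamini-Hochberg adjusted p = 0.0573). The other was at 2.50, past the threshold (limma, adjusted p = 0.0225). On the brighter one, control animals 3, 4 and 5 lay below the array median, at 133, 35.0 and 188.33 against 217, 184 and 188.35. The size of its change is therefore uncertain.

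TNFSF13B (BAFF), a survival factor of B cells made by myeloid cells, showed no difference past the threshold on either probe set. TNFSF13B (1) had signals of 1040, 1236, 2664, 1558 and 653 in brain-dead animals 1 to 5, against 1848, 1156, 1275, 1890 and 849 in control animals 1 to 5. Brain-dead animal 3 was the highest and brain-dead animal 5 the lowest of all 10, and TNFSF13B (2) had the same highest and lowest animals. The log2 changes were -0.07 (95% interval -0.82 to 0.69) for TNFSF13B (1) and -0.12 (-0.96 to 0.72) for TNFSF13B (2). Measured B and plasma cell markers (3 of 7 listed) all had changes below 0, none past the threshold, with a summed signal of 656 to 2347 in brain-dead and 1123 to 2414 in control livers. MS4A1 and CD79A, which define B cells, lay below the filter.

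TNF itself lay below the median on all 10 arrays. Its signal was 213, 187, 50.8, 107 and 15.9 in brain-dead animals 1 to 5, against 76.7, 208, 190, 104 and 121 in control animals 1 to 5. The control range lay within the brain-dead range, and brain-dead animals differed 13.4-fold among themselves against 2.71-fold for control animals. In a fit without the filter TNF did not pass in limma (Benjamini-Hochberg adjusted p = 0.674, log2 change -0.69), and a signal this low sets no level.

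**Figure D2:**
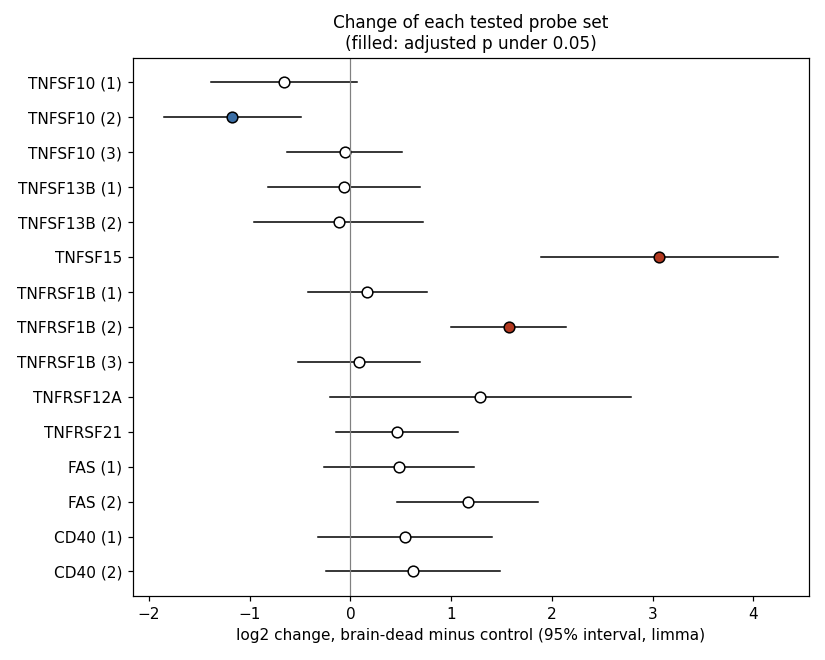
Log2 change (brain-dead minus control) of the 15 tested probe sets with 95% intervals from limma; filled points passed a Benjamini-Hochberg adjusted p of 0.05. TNFSF15 (3.07) and TNFRSF1B (2) (1.57) lie to the right, TNFSF10 (2) (-1.17) lies to the left, and FAS (2) has an interval above 0 without passing after adjustment.

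TNFRSF1B, the TNF receptor found mainly on leukocytes and endothelium, gave the lowest p-value of the family on one probe set and no difference past the threshold on its other probe sets. TNFRSF1B (2) had signals of 4551, 2477, 3570, 6095 and 5799 in brain-dead animals 1 to 5, against 1136, 1324, 1472, 1731 and 1613 in control animals 1 to 5. Every brain-dead animal exceeded every control animal, and the control animals lay within 1.52-fold of each other. TNFRSF1B (2) rose 2.97-fold, a log2 change of 1.57 ± 0.26 (SE, n = 5 per group; in limma, Benjamini-Hochberg adjusted p = 0.00697), and it passed in all 23 alternatives (adjusted p from 0.00369 to 0.0331). TNFRSF1B (1) had signals of 2232, 4395, 2674, 3132 and 1950 in brain-dead animals 1 to 5, against 1521, 2371, 3307, 2816 and 2656 in control animals 1 to 5. TNFRSF1B (1) changed by 0.17 (95% interval -0.42 to 0.76) and TNFRSF1B (3) by 0.09 (-0.52 to 0.70), neither past the threshold in limma (Benjamini-Hochberg adjusted p = 0.753 and 0.888). Both had brain-dead animal 2 highest and control animal 1 lowest of all 10, so that these probe sets ordered the animals alike. TNFRSF1B (2), in contrast, had brain-dead animal 2 as the lowest of its group. The upper ends of the intervals of TNFRSF1B (1) and (3) lay below the lower end of that of TNFRSF1B (2), which was 1.00. The files do not say which part of the transcript each probe set reads, so whether these are transcript forms of TNFRSF1B was not tested.

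**Figure D3:**
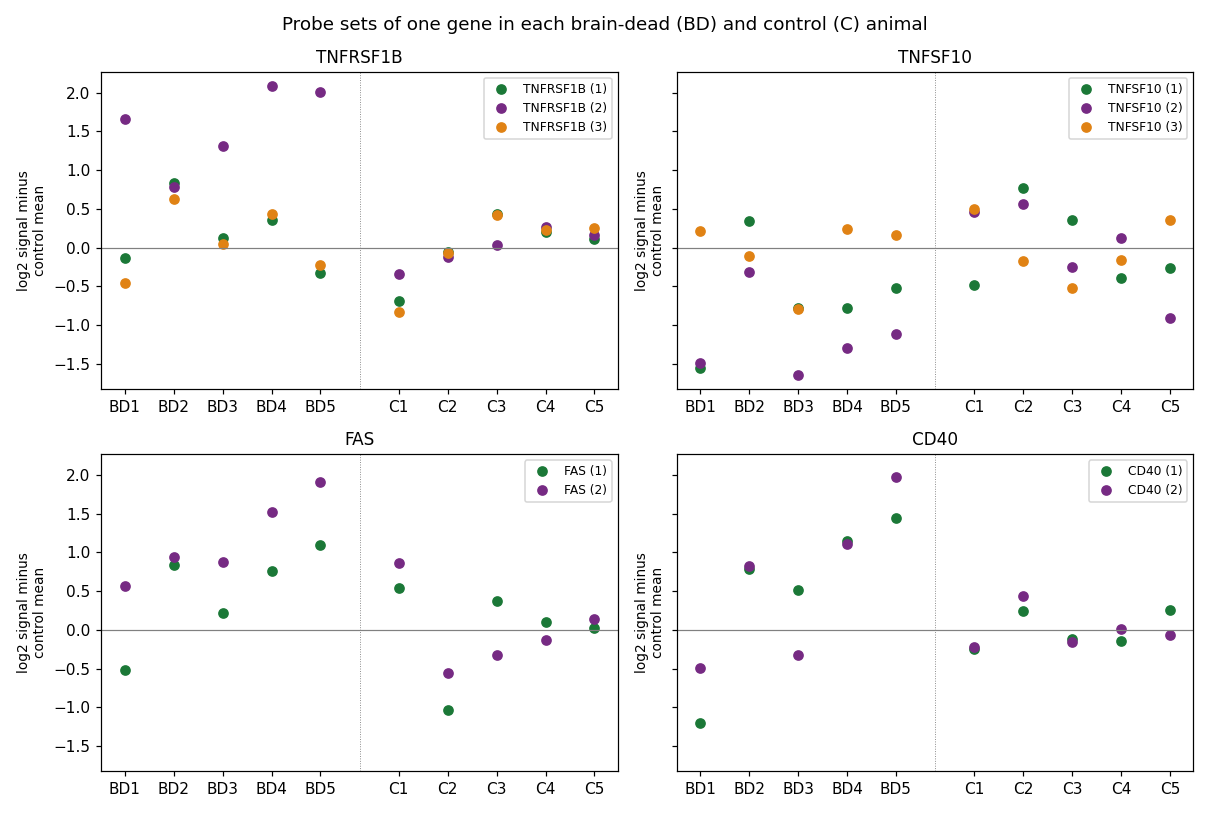
Log2 signal minus the control mean of the same probe set, in brain-dead (BD1 to BD5) and control (C1 to C5) animals, for the tested probe sets of TNFRSF1B, TNFSF10, FAS and CD40. TNFRSF1B (2) lies above the other TNFRSF1B probe sets in brain-dead animals 1, 3, 4 and 5, and CD40 (1) is lowest in brain-dead animal 1.

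FAS, the death receptor for FASLG, had no probe set past the threshold, and its probe sets differed. FAS (2) had signals of 350, 452, 432, 680 and 890 in brain-dead animals 1 to 5, against 431, 160, 189, 216 and 262 in control animals 1 to 5. Control animal 1 was the one control animal that reached into the brain-dead range. The log2 change of FAS (2) was 1.16 ± 0.33 (SE, n = 5 animals per group), just outside the threshold (limma, Benjamini-Hochberg adjusted p = 0.0519). All 5 brain-dead arrays but only 3 of the 5 control arrays had FAS (2) above the array median, so the size of its change is uncertain. FAS (2) passed without brain-dead animal 1 (limma, Benjamini-Hochberg adjusted p = 0.0441), without control animal 1 (0.0371), without both (0.0304) and with array weights (0.0205), and over its alternatives the adjusted p ranged from 0.0205 to 0.133. FAS (1) averaged 834 ± 315 in brain-dead and 592 ± 204 in control livers (SD, n = 5 each), a change of 0.48 with a 95% interval of -0.27 to 1.23. That change of FAS (1) was 0.73 without brain-dead animal 1 and 0.22 without control animal 2. FAS (3), at 113 to 295 in brain-dead and 148 to 239 in control livers, and FAS (4), at 15.6 to 50.1 and 10.4 to 43.1 in the same order, lay below the filter. In FAS (3), brain-dead animals 1 and 2 were below every control animal and brain-dead animal 5 alone was above the highest. The ligand FASLG also lay below the filter.

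TNFRSF12A (Fn14), the receptor of TNFSF12 (TWEAK) and known as a receptor induced in injured liver, had signals that separated the sexes but not the groups. Its signal was 3709, 7748, 10178, 12699 and 14904 in brain-dead animals 1 to 5, against 1409, 725, 5048, 10246 and 11985 in control animals 1 to 5. The control animals alone spanned 16.5-fold. The log2 change of 1.29 ± 0.69 had a 95% interval of -0.20 to 2.78 and did not pass in limma (Benjamini-Hochberg adjusted p = 0.279). Without control animal 2, the lowest of all 10, it was 0.71.

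Every male, brain-dead or control, had a higher TNFRSF12A signal than every female. Males averaged 12002 ± 1957 and females 3728 ± 2842 (SD, n = 5 each), a difference of 1.95 ± 0.48 on the log2 scale, male minus female, with group in the model. This sex term was added after the values were seen. TNFRSF12A did not pass over all probe sets (limma, Benjamini-Hochberg adjusted p = 0.282), nor did any other (0%), while 12.1% had an unadjusted p under 0.05 and for 1.84% the sexes did not overlap. With sex in the model the change of TNFRSF12A between the groups was 0.90 ± 0.48 (limma, Benjamini-Hochberg adjusted p = 0.296). The groups overlapped in each sex, with 10178 to 14904 in brain-dead and 10246 and 11985 in control males, and 3709 and 7748 in brain-dead and 725 to 5048 in control females.

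**Figure D4:**
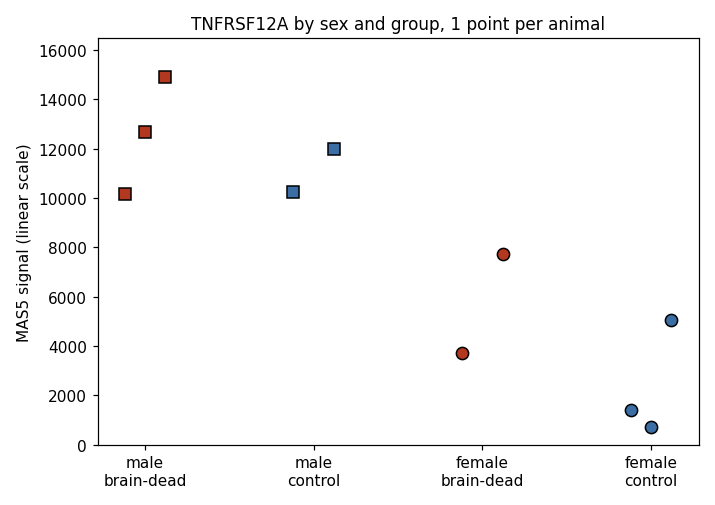
MAS5 signal of TNFRSF12A on a linear scale, 1 point per animal, in brain-dead and control males (squares) and females (circles). All 5 males lie at 10178 or above and all 5 females at 7748 or below, whichever group they belong to.

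TNFRSF21 (DR6), a death receptor with broad expression, had signals of 5449, 2154, 5663, 3371 and 3924 in brain-dead animals 1 to 5, against 4049, 2413, 2494, 2868 and 2523 in control animals 1 to 5. Brain-dead animal 2 was the lowest of all 10, while control animal 1 reached above brain-dead animals 2, 4 and 5. The change of 0.46 had a 95% interval of -0.14 to 1.07 and did not pass in limma (Benjamini-Hochberg adjusted p = 0.340).

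CD40, a costimulatory receptor of antigen-presenting cells and endothelium, spread out in the brain-dead animals. CD40 (1) had signals of 332, 1321, 1088, 1688 and 2068 in brain-dead animals 1 to 5, against 644, 908, 702, 690 and 912 in control animals 1 to 5. Brain-dead animal 1 was the lowest of all 10, and the other 4 brain-dead animals lay above every control animal. The brain-dead animals spanned 6.22-fold and the control animals 1.42-fold. CD40 (1) changed by 0.54 ± 0.40 (limma, Benjamini-Hochberg adjusted p = 0.448), and by 0.97 past the threshold without brain-dead animal 1 (0.0403, the lowest over its alternatives, which reached 0.726), but by 0.31 without brain-dead animal 5. CD40 (2) had signals of 511, 1281, 575, 1553 and 2820 in brain-dead animals and of 618 to 973 in control animals, with brain-dead animal 5 highest and brain-dead animal 1 lowest. Its change was 0.62 ± 0.40, 0.90 without brain-dead animal 1 and 0.28 without brain-dead animal 5, past the threshold in none of its alternatives (limma, Benjamini-Hochberg adjusted p from 0.174 to 0.708). CD40 (3) lay below the filter, at 12.2 to 106 in brain-dead and 8.11 to 91.2 in control livers. CD40LG, its ligand on activated T cells, averaged 278 in brain-dead and 273 in control livers and did not pass in limma (Benjamini-Hochberg adjusted p = 0.918).

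Brain-dead animal 1 was the lowest of its group on 7 of the 15 probe sets and the highest on none, whereas brain-dead animal 5 was the highest on 5 and the lowest on 3. Control animal 1 was the lowest of its group on 7 and the highest on 4. No probe set of the family had a change that differed between the sexes (limma interaction, Benjamini-Hochberg, 0 of 15 adjusted and 0 of 15 with an unadjusted p under 0.05). Over all probe sets the interaction passed for 0%, with 3.81% at an unadjusted p under 0.05. Within males, 6 of the 15 probe sets were higher in brain-dead animals without overlap (TNFSF15, TNFRSF1B (2), TNFRSF21, FAS (1), FAS (2) and CD40 (1)) and 2 were lower (TNFSF10 (1) and TNFSF10 (2)). Within females 2 were higher (TNFSF15 and TNFRSF1B (2)) and 1 was lower (TNFSF10 (2)). With so few animals per sex such separation was common. Over all probe sets, 16% were higher and 15.6% lower without overlap in males, and 15.4% and 16.1% in females.

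The 3 probe sets past the threshold all had names starting with MmuSTS, a prefix of the array's design, as did FAS (2). Of the 4 tested probe sets of the family with that prefix 3 passed, and of the 11 with the prefix MmugDNA none did (limma, Benjamini-Hochberg, 0 of 11). FAS (3), which also carries the prefix MmuSTS, lay below the filter and had a log2 change of 0.0011. Over the whole array the shares past the threshold were 8.15% for MmuSTS, 5.8% for MmugDNA and 6.89% for the prefix Mmu, which no tested probe set of the family carried. What sets these probe sets apart from others of the same gene was not tested.

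Beyond the family members, 105 genes of the pathway were listed with earlier results of these data known, of which 75 had a probe set and 61 were tested. Each gene was represented by its brightest probe set. Of the 61, 9 rose, 1 fell and 51 did not pass, which is 16.4% past the threshold against 6.77% of all 9835 genes (2.9% higher and 3.87% lower). The median log2 change was 0.28 over the 61 genes and -0.0069 over all genes. The count became 6 without brain-dead animal 5 and 5 without both animals numbered 1.

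**Figure D5:**
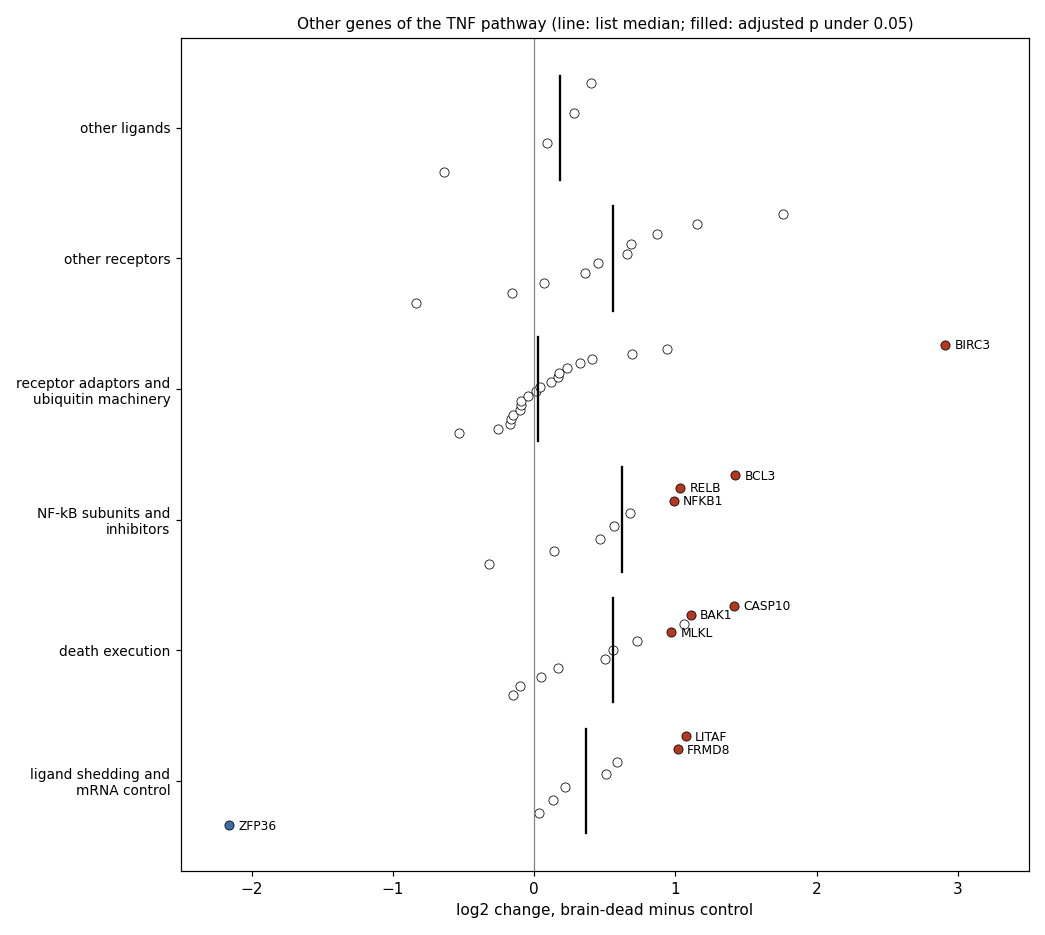
Log2 change (brain-dead minus control) of 61 tested genes in 6 lists of the TNF pathway, 1 point per gene, with a line at each list's median; filled points passed a Benjamini-Hochberg adjusted p of 0.05 and carry the gene symbol. BIRC3 lies farthest to the right at 2.91 and ZFP36 farthest to the left at -2.16, and no gene of the ligand and receptor lists is filled.

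None of the 4 other ligands and none of the 10 other receptors passed on their brightest probe set (limma, Benjamini-Hochberg, 0 of 14). The ligand median was 0.18 and the receptor median 0.55. LTBR, the lymphotoxin beta receptor, had signals of 5526 to 9807 in brain-dead and 4025 to 5032 in control livers without overlap. Its log2 change of 0.66 ± 0.21 was not past the threshold in limma (Benjamini-Hochberg adjusted p = 0.0816). TNFRSF10A and TNFRSF14 were also higher without overlap on their brightest probe sets, as were 3.33% of all probe sets tested. TNFRSF11B (osteoprotegerin), a soluble decoy receptor, had a log2 change of 0.87 ± 0.28, which was not past the threshold in limma (Benjamini-Hochberg adjusted p = 0.0839), and a second TNFRSF11B probe set rose by 1.53 (0.0198). The calls of the other probe sets of TNFRSF10A and TNFRSF11B ended without brain-dead animal 5 (limma, Benjamini-Hochberg adjusted p = 0.0659 and 0.0546), that of TNFRSF11B also without control animal 2 (0.0525), and both without the animals numbered 1 (0.0579 and 0.0590).

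Of the 20 adaptors and ubiquitin factors that couple receptors to NF-kB, 1 rose and none fell, with a median of 0.03. BIRC3 (cIAP2), a ubiquitin ligase bound to TRAF2 that restrains death signalling at the TNF receptor, had signals of 5329, 13976, 11428, 7310 and 22007 in brain-dead animals 1 to 5, against 1296, 1161, 1400, 1808 and 1499 in control animals 1 to 5. The groups lay well apart, and BIRC3 rose by 2.91 ± 0.33 on the log2 scale (SE, n = 5 per group; in limma, Benjamini-Hochberg adjusted p = 0.00158). Of the other BIRC3 probe sets, one rose by 3.14 (limma, adjusted p = 0.00144) and one, at 0.37, did not pass (0.525). TRADD, the adaptor of TNFRSF1A, had a log2 change of 0.04 ± 0.27, which was not past the threshold. TNFAIP3 (A20), the deubiquitinase that ends TNF signalling, had probe sets that disagreed, the brightest at -0.17 ± 0.22 without passing and another at 1.45 past the threshold in limma (Benjamini-Hochberg adjusted p = 0.688 and 0.0255). The call of that other TNFAIP3 probe set ended without brain-dead animals 3 or 5 (limma, Benjamini-Hochberg adjusted p = 0.0579 and 0.0645) and without control animals 1, 2 or 5 (0.0547, 0.0504 and 0.0524).

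Of 8 NF-kB subunits and inhibitors 3 rose and none fell, with a median of 0.62. BCL3, a nuclear IkB protein, rose by 1.42 ± 0.24, the subunit RELB by 1.04 ± 0.23 and the subunit NFKB1 by 0.99 ± 0.26 (limma, Benjamini-Hochberg adjusted p = 0.00741, 0.0236 and 0.0430). BCL3 passed in all alternatives, while RELB lost its call without brain-dead animal 5 and without control animal 1 (limma, Benjamini-Hochberg adjusted p = 0.0586 and 0.0547, with 0.0129 to 0.0801 over all its alternatives). NFKB1 lost its call when any array was left out, other than those of brain-dead animal 4 and control animal 5 (adjusted p from 0.0569 to 0.109 in limma). Of the other NFKB1 probe sets, one was at 0.93 (limma, adjusted p = 0.0454) and one at 0.02 did not pass (0.976). NFKB2 had probe sets of opposite sign, at -0.32 on the brightest without passing and at 0.89 on another past the threshold in limma (Benjamini-Hochberg adjusted p = 0.475 and 0.0381, the second call lost under 12 of 22 alternatives).

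Of 11 genes of death execution 3 rose and none fell, with a median of 0.56. CASP10, an initiator caspase recruited to death receptors, averaged 972 ± 338 in brain-dead and 356 ± 78.7 in control livers (SD, n = 5 each), a rise of 1.42 ± 0.26 (SE). BAK1, which forms pores in the mitochondrial outer membrane, rose by 1.11 ± 0.21, and MLKL, the effector of necroptosis, by 0.97 ± 0.23 (limma, Benjamini-Hochberg adjusted p = 0.0106, 0.0128 and 0.0285 for CASP10, BAK1 and MLKL). The groups did not overlap for these 3 genes, but they were picked by their calls on the same values, so this adds no support. Over all probe sets tested, 6.93% did not overlap. MLKL lost its call without brain-dead animals 3, 4 or 5 (limma, Benjamini-Hochberg adjusted p = 0.0513, 0.0563 and 0.0692) and without control animals 2, 3 or 5 (0.0607, 0.0642 and 0.0538). CASP8, the initiator caspase of death receptors, and its regulator CFLAR had log2 changes of 0.56 ± 0.24 and 0.73 ± 0.27, neither past the threshold in limma (Benjamini-Hochberg adjusted p = 0.177 and 0.127).

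Of 8 genes that control ligand release or TNF mRNA, 2 rose and 1 fell, with a median of 0.36. LITAF, a gene named for induction of TNF by lipopolysaccharide, averaged 20709 ± 5898 in brain-dead and 9624 ± 1405 in control livers (SD, n = 5 each), a rise of 1.07 ± 0.22 (SE, limma, Benjamini-Hochberg adjusted p = 0.0176). FRMD8, a partner of the iRhom proteins that carry the TNF sheddase to the cell surface, rose by 1.02 ± 0.27 (limma, Benjamini-Hochberg adjusted p = 0.0430). Leaving out any single array ended that call, other than control animal 4 (limma, adjusted p up to 0.101), and another FRMD8 probe set changed by -0.0034. ZFP36 (tristetraprolin), which binds TNF mRNA and speeds its decay, had signals of 409, 453, 594, 412 and 323 in brain-dead animals 1 to 5, against 2231, 3479, 3369, 624 and 1590 in control animals 1 to 5. Every brain-dead animal lay below every control animal, control animal 4 being the nearest. ZFP36 fell by 2.16 ± 0.40 on the log2 scale (SE, limma, Benjamini-Hochberg adjusted p = 0.0110). Without both animals numbered 1 the calls of BAK1 and ZFP36 ended (limma, Benjamini-Hochberg adjusted p = 0.0510 and 0.0512).

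Cell type markers were read from the same fit, each by its brightest probe set unless stated otherwise. The summed signal of 9 neutrophil and monocyte markers was 22731 to 70658 in brain-dead and 5764 to 21638 in control livers, without overlap. S100A8 and S100A9 carried much of that sum in brain-dead livers, with means of 12411 and 13929 against 1043 and 1257 in control livers. Of the 9 markers, S100A8 (log2 change 3.85 ± 0.74) and S100A9 (3.54 ± 0.63) rose (limma, Benjamini-Hochberg adjusted p = 0.0128 and 0.00911). The other 7 did not pass, and each overlapped between the groups, with FPR1 (-0.26) and ELANE (-0.38) below 0. MPO, MMP8 and S100A12 lay below the filter. On other probe sets VCAN rose by 1.54, 1.55 and 1.69 (limma, adjusted p = 0.0438, 0.0409 and 0.0291) and FCN1 by 1.45 (0.0244), calls that were lost in 14, 12 and 7 of 22, 22 and 23 alternatives for VCAN and in 6 of 22 for FCN1. The brightest probe sets were at 1.62 for VCAN and 0.27 for FCN1 without passing (limma, adjusted p = 0.0549 and 0.657). Of 12 Kupffer cell and macrophage markers none passed on the brightest probe set (limma, Benjamini-Hochberg, 0 of 12), and another probe set of C1QA fell by 1.31 (0.0444, lost in 11 of 23 alternatives), and the summed signal was 54745 to 118316 in brain-dead and 73281 to 129449 in control livers. For 5 T and NK cell markers the sum was 12357 to 18901 in brain-dead and 9757 to 12530 in control livers, and for 8 endothelial markers 18489 to 30792 in brain-dead and 21160 to 38367 in control livers, with 0 of 13 past the threshold (limma, Benjamini-Hochberg). KLRD1 carried most of the T and NK cell sum, with means of 13002 in brain-dead and 7847 in control livers. Its brightest probe set was at 0.72 and another at -0.27, neither past the threshold (limma, adjusted p = 0.0549 and 0.714). Of the 5 markers 4 had changes above 0, and CD8A was at -0.25. The lists of 4 stellate cell and fibroblast, 2 cholangiocyte and 3 erythroid and platelet markers overlapped between the groups in their summed signal, at 10188 to 32896, 323 to 1330 and 1483 to 5007 in brain-dead livers against 24271 to 27550, 489 to 1473 and 1392 to 6745 in control livers. The part of these cell types in the changes of TNFSF15 and TNFRSF1B (2) was not tested.

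The genes whose pattern over the 10 arrays was most like that of TNFSF15, by the root-mean-square difference between log2 signals centred on each gene's own mean, were SOCS3, VNN2 and TNFAIP1. Their differences from TNFSF15 were 0.95, 0.99 and 1.03 on the log2 scale, where the median over 9834 genes was 1.85. SOCS3, a feedback inhibitor of cytokine receptors, had signals of 2089, 657, 2917, 1818 and 1997 in brain-dead animals 1 to 5, against 288, 458, 343, 363 and 442 in control animals 1 to 5. As in TNFSF15, brain-dead animal 3 was the highest. The lowest brain-dead animal was animal 2 for SOCS3 and animal 4 for TNFSF15. Among control animals the lowest was animal 1 for SOCS3 and animal 4 for TNFSF15. For TNFSF10 (1), the tested gene with the next lowest p-value on its brightest probe set, the most alike were PKIG, PIF1 and TMEM35B, with differences of 0.24, 0.28 and 0.28 against a median of 0.77. All 3 had changes below 0, -0.68, -0.55 and -0.52, that did not pass in limma (Benjamini-Hochberg adjusted p = 0.154, 0.240 and 0.391).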

How the data were processed

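Liver RNA of 10 rhesus macaques was hybridised to 1-colour arrays, 1 per animal. The authors deposited 1 signal intensity per probe set and array, made with MAS5 per the submitters' processing notes (version: not given in the sources used here). Each array had a 2% trimmed mean of 1000, which shows a scaling before deposit. Groups, sex, age and replicate numbers came from the labels.

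The deposited values were taken to log2, with no pseudocount and no normalization added. The 99 control probe sets were left out, and 26653 probe sets passed the filter. Genes were named from the platform annotation where a probe set had 1 symbol (24969 did, 361 had several and 27535 none there). All 9 genes found matched the RefSeq gene table under the same symbol. The test was limma 3.58.1 in R 4.3.3 (eBayes with trend, no covariates); p-values were adjusted by Benjamini-Hochberg over all tested probe sets, at a threshold of 0.05. The same fit was run on simulated data with independent errors and planted changes, which checks the code and not the calls reported here. Errors not called SD are limma's standard errors. Figures were drawn with matplotlib 3.10.9.

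All probe sets of the 10 genes are named, and of each pathway list up to 3 genes past the threshold in each direction, while others were named after their values were seen. The members, lists and alternatives were chosen with earlier results of these data known. Alternatives were other normalizations (quantile, median centring), pseudocounts (16, 64), a filter at the 75th percentile or none, models with sex or with sex and age, the replicate number as a block, other eBayes settings, array weights, a 2-fold minimum and leaving out arrays. The sex term, the count over any probe set of a gene, the alternatives for pathway and marker genes and the overlap within each sex were added after seeing the data. The calls by name prefix and the counts of highest and lowest animals were not planned either. A promoter search was planned and not run, since promoter sequences were not used here.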

Additional observations from a re-analysis of the deposited data

How the results depend on the processing

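Over all probe sets, 1627 passed in the reported fit, 1056 without the filter, 1035 with sex and age in the model, 674 without both animals numbered 1, and 660 to 2289 when single arrays were left out. With the replicate number as a block the count was 3013, and 3 probe sets of the TNF family passed with it as without it. The numbers were not taken to pair the animals, since deviations from the group means correlated at 0.38, 0.06, 0.13, 0.09 and 0.13 for numbers 1 to 5, and 2 of 5 brain-dead animals correlated best with the control animal of their own number. The pathway genes past the threshold numbered 10, 5 without both animals numbered 1, and 6 to 11 when single arrays were left out; counting a gene by any of its probe sets, a choice made after seeing the data, gave 14. TNFSF15 and TNFRSF1B (2) passed in all 22 and 23 alternatives that could be fitted; with a filter at the 75th percentile TNFSF15 was not tested. TNFSF10 (2) failed in 14 of 23. Small changes turned sign. TNFSF10 (3) was 0.013 with median centring, 0.13 with sex and age in the model, 0.0018 without both animals numbered 1, and -0.18 to 0.13 when single arrays were left out. TNFSF13B (1) was 0.0029 with median centring, 0.22 with array weights, 0.13 without both animals numbered 1, and -0.33 to 0.18 when single arrays were left out. TNFSF13B (2) was 0.022 with array weights and -0.40 to 0.15 without single arrays, TNFRSF1B (1) -0.0039 to 0.29 and TNFRSF1B (3) -0.12 to 0.22. The cause of these shifts was not tested. Signals below every array median limit what TNF, TNFSF10 (4), FAS (4) and CD40 (3) can show. FAS (3), above the median on 4 of the 10 arrays, is limited too.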
